A study of Oryza sativa with 12 samples.

Results

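Rice embryos pass from building their body plan to maturation, and the genes described here are the 200 that rose most on that way in the wild type. They were taken from the 38978 genes of a count table of embryo RNA. Scaled counts (CPM, the count of a gene divided by the total of its library, times 1000000) were averaged over 3 libraries per group, and the 200 genes with the highest log2 ratio of the mean at 25 days after pollination (DAP) to the mean at 7 DAP, with 1 added to both, were kept. The wild type was Nipponbare (NIP), and the mutant was *Oslec1-1*, a CRISPR/Cas9 frameshift allele of *OsLEC1* in the Nipponbare background. Embryos of both genotypes were collected at 7 DAP (early stage, EE) and at 25 DAP (late stage, LE), and each genotype and stage had 3 replicates, giving 12 libraries of polyadenylated RNA. The RNA came from collections of whole embryos, and the mutant is represented by 1 allele.

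In cereal seeds, the embryo first lays down its shoot, root and scutellum, then fills with reserves, becomes able to survive drying and stops growing. LEC1 is a B subunit of the NF-Y transcription factor, and in *Arabidopsis* it is needed for reserve deposition and desiccation tolerance. The 200 genes show which transcripts accumulate on this path when *OsLEC1* is intact, and the question of each comparison below is at what level they are found when it is not.

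The genes are given by the identifiers of the count table, with positions on the IRGSP-1.0 genome. The deposited files name 1 of the 200, and the annotation used here matched 0 of them, and no gene descriptions were used here for the others. For 28 of the 200, the part of the supplementary lists of the study used here gives gene ontology (GO) terms, and these terms are the only functions stated. Without descriptions, known families of maturation genes such as the late embryogenesis abundant proteins and oleosins were not counted among the 200. No sequence is printed for the same reason.

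Library totals lay between 16113922 and 27213238 counts. In NIP LE the libraries were spread, with a median CPM over the 200 genes of 31.5, 46.9 and 64.7 in its 3 libraries. Library codes begin differently at EE and at LE, and what the codes stand for is not given. Stage and any difference that goes with the codes cannot be told apart. The labels call the samples replicates without naming separate plants, so the *p* values measure the spread between these libraries. In whole embryos, more cells that express a gene and more RNA per cell cannot be told apart. The kit does not mark strand, and 30 of the 200 genes overlap another gene model, for 2 of which (*Os01g0821600* and *Os01g0675800*) the overlapping gene reaches more than 10 CPM.

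The choice rests on NIP alone, so the NIP values are a description without a test. The log2 ratios of the 200 genes ran from 3.53 to 9.95, with a median of 4.15. The median gene had a mean of 1.08 CPM in NIP EE and of 47.5 CPM in NIP LE. Together the 200 genes took between 0.276% and 0.3% of the counts of a NIP EE library and between 5.22% and 5.87% of a NIP LE library.

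Most of that share belonged to a pair of genes. On the length-adjusted scale (FPKM, fragments scaled to gene length and library size), *Os08g0104400* (chromosome 8, 233816 to 234464) had the highest mean of the 200 in NIP LE, at 31014 ± 1696 (SD, n = 3). It was followed by *Os07g0529800* (chromosome 7, 20733236 to 20735266) at 11721 ± 1188, *Os03g0244200* (chromosome 3, 7626455 to 7629565) at 3790.4 ± 87.3 and *Os01g0907600* (chromosome 1, 39501378 to 39502910) at 895 ± 128. The median of the 200 in NIP LE was 33.3 FPKM, so these 4 genes stood far above the bulk of the set.

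The gene with the highest ratio was *Os01g0907600*. It had 0.716, 1.05 and 0.0559 CPM in the NIP EE libraries and 1819.7, 1612 and 1356 CPM in the NIP LE libraries. The second was *Os05g0476700* (chromosome 5, 23463142 to 23465536), with 2.05, 2.296 and 3.35 CPM in NIP EE and 255, 378 and 355 CPM in NIP LE. The third was *Os07g0209100* (chromosome 7, 5890575 to 5894128), which carries the GO term for hydrolases of O-glycosyl compounds and had 1.23, 0.931 and 0.838 CPM in NIP EE and 219.8, 148 and 183 CPM in NIP LE. All 3 were nearly silent in the early wild type embryo.

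At the edge of the choice, *Os12g0502800*, *Os03g0299600* and *Os07g0680600* had log2 ratios that all round to 3.53 and were the last 3 taken. *Os02g0791500*, *Os12g0484600* and *Os11g0283500*, at 3.53, 3.52 and 3.52, were the first 3 left out. The limit therefore falls in a continuous range of ratios and marks no gap.

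The 200 genes lie on all 12 chromosomes. Chromosome 2 holds 35 of them (17.5%, against 11.3% of the genes with a count on the 12 chromosomes), chromosome 1 holds 34 (17.0% against 14.1%) and chromosome 9 holds 18 (9.0% against 5.49%). Only 5 pairs are direct neighbours among genes with a count. A pair of these pairs joins *Os09g0522000*, *Os09g0522100* and *Os09g0522200* into a row of 3 genes on chromosome 9, between 20395262 and 20404332, which is described below.

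**Figure D1:**
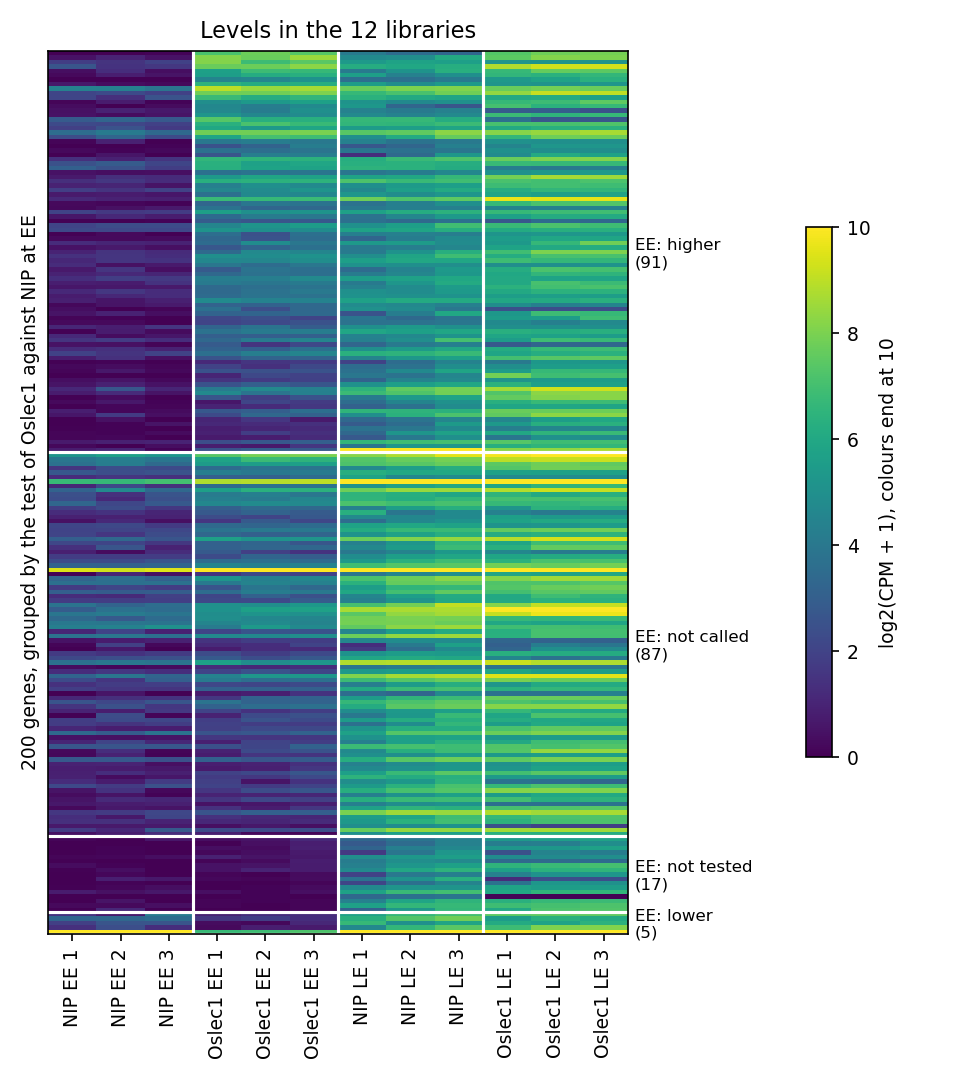
Levels of the 200 genes (rows) in the 12 libraries (columns), as log2(CPM + 1), with colours that end at 10. Rows are grouped by the test of *Oslec1-1* against NIP at EE. The 91 genes called higher at EE are on average lighter in *Oslec1-1* EE than in NIP EE. Some of them stay dark there, such as *Os07g0580300* with a mean of 0.877 CPM in *Oslec1-1* EE. Most genes of the other groups turn light at LE in both genotypes.

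The libraries of *Oslec1-1* had no part in choosing the genes, so the comparison of its 2 stages uses none of the values of the rule. The library codes split the stages alike in both genotypes. Any difference that goes with the codes would thus enter both the choice and this comparison, and it cannot be told apart from stage. The 200 genes took between 0.667% and 0.748% of the counts of an *Oslec1-1* EE library and between 3.4% and 4.0% of an *Oslec1-1* LE library. A gene was called at an adjusted *p* under 0.05 in edgeR's quasi-likelihood test with a log2 fold change of 2 or more in either direction. Of the 199 genes tested, 144 (72.4%) were called higher at LE than at EE, where 6.2% of all 24491 genes tested were called higher. In the opposite direction, 3 genes (1.51%) were called lower, against 4.94% of all genes tested, and 52 were not called. A gene that passed the filter on low counts through LE alone had to differ. Among the 177 genes with 10 or more counts in each of the 6 libraries, 123 were called higher and 3 lower, where 3.7% and 3.06% of all genes kept by this filter were.

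The median log2 fold change of the genes tested was 3.47, with quartiles of 1.88 and 4.93, while that of all genes tested was 0.0037. Without the demand on the fold, 184 genes were higher and 8 were lower at an adjusted *p* under 0.05, and the share of all genes that passed so is not given here. In 184 genes, every *Oslec1-1* LE library lay above every *Oslec1-1* EE library, which was so for 28.9% of all genes with a count. Hence most of the 52 genes that were not called rose by less than the limit, among them the very abundant *Os07g0529800* and *Os03g0244200*.

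The steepest increases were found for genes that were close to silent at EE in both genotypes. *Os02g0677300* (chromosome 2, 27652935 to 27654206) had 0, 1.18 and 0 CPM in NIP EE, 0, 0 and 0.106 in *Oslec1-1* EE, 7.62, 38.1 and 97.9 in NIP LE and 63.4, 143 and 155 in *Oslec1-1* LE. *Os09g0522000* had 0.205, 0.186 and 0.335 CPM in NIP EE, 0.0977, 0 and 0.106 in *Oslec1-1* EE, 51.7, 98.5 and 104 in NIP LE and 118, 133 and 146 in *Oslec1-1* LE. *Os04g0572400* (chromosome 4, 28820861 to 28821520) had 0, 0.434 and 0 CPM in NIP EE, 0.0977, 0.0558 and 0.106 in *Oslec1-1* EE, 19.96, 57.2 and 89.2 in NIP LE and 79.9, 104 and 111 in *Oslec1-1* LE. In all 3, the *Oslec1-1* LE libraries lay far above every EE library. Their *Oslec1-1* EE libraries held at most 2 counts each, so that they could be tested through LE alone, and neither a fold nor a *p* value is given. Another, *Os01g0597600* (chromosome 1, 23447173 to 23448687), had at most 2 counts per EE library of either genotype and reached 3.31, 11.9 and 20.95 CPM in NIP LE and 12.2, 36.7 and 31.5 CPM in *Oslec1-1* LE.

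The neighbours of *Os09g0522000* behaved alike. *Os09g0522100* (chromosome 9, 20399458 to 20400198) had 0.0512, 0.124 and 0.279 CPM in NIP EE, 0, 0.0558 and 0.212 in *Oslec1-1* EE, 25.7, 36.6 and 34.8 in NIP LE and 54.9, 45.9 and 45.7 in *Oslec1-1* LE. *Os09g0522200* (chromosome 9, 20403413 to 20404332) had 0.358, 0.745 and 1.51 CPM in NIP EE, 0.831, 0.167 and 0.106 in *Oslec1-1* EE, 31.1, 50.5 and 48.3 in NIP LE and 81.2, 77.1 and 72.1 in *Oslec1-1* LE. Thus the row of 3 genes was at or near 0 at EE and well expressed at LE in both genotypes, and no gene of the row was called between the genotypes at LE. At EE, *Os09g0522200* was the only one of the row that could be tested and was not called (adjusted *p* = 0.0539), but it was called lower in *Oslec1-1* without replicate 1 of NIP EE (log2 fold change -2.29) or replicate 1 of *Oslec1-1* EE (-3.27). How reads shared by near-identical neighbours were counted is not given in the sources used here.

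*Os08g0104400* and *Os01g0907600* rose in *Oslec1-1* from lower or unlike starting points. *Os08g0104400* had 1441, 1574 and 1609 CPM in NIP EE, 105, 119 and 148 in *Oslec1-1* EE, 25809, 28222 and 26374 in NIP LE and 3949.9, 3519 and 3513 in *Oslec1-1* LE. Its log2 fold change between the *Oslec1-1* stages was 4.87 ± 0.16 (standard error, n = 3, edgeR adjusted *p* = 3.53e-07). The *Oslec1-1* libraries lay below the NIP libraries at both stages without overlap. *Os01g0907600* had 4.69, 6.86 and 6.09 CPM in *Oslec1-1* EE and 297, 329.8 and 418 CPM in *Oslec1-1* LE, a log2 fold change of 5.88 ± 0.20 (adjusted *p* = 3.95e-07). *Os05g0476700*, with 5.13, 7.48 and 7.196 CPM in *Oslec1-1* EE and 444, 383 and 413 CPM in *Oslec1-1* LE, rose by 5.96 ± 0.17 on the log2 scale (adjusted *p* = 2.02e-07).

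A few of the 200 went the other way. Every *Oslec1-1* LE library lay below every *Oslec1-1* EE library in 7 genes, against 26.6% of all genes with a count, and 3 of the 7 were called lower. *Os06g0718100* (chromosome 6, 30520195 to 30521345), labelled with a cell wall term, had 162, 78.3 and 78.7 CPM in *Oslec1-1* EE and 11.8, 5.58 and 5.41 CPM in *Oslec1-1* LE, and fell by 3.81 on the log2 scale (standard error 0.39, adjusted *p* = 7.06e-05). *Os05g0477600* (chromosome 5, 23495654 to 23497572), labelled with cell wall organization, had 279, 114 and 174 CPM and 36.8, 35.04 and 35.4 CPM, and fell by 2.41 (adjusted *p* = 1.11e-04). *Os01g0219300* (chromosome 1, 6534612 to 6535829) had 24.6, 17.4 and 30.6 CPM and 6.32, 6.81 and 4.49 CPM, and fell by 2.05 (adjusted *p* = 8.82e-05). The last of these is close to the limit and was not called when replicate 3 of *Oslec1-1* EE (log2 fold change of -1.87) or replicate 3 of *Oslec1-1* LE (-1.89) was left out. In each of the 3 genes, the level of *Oslec1-1* EE was at or above that of NIP LE, so the fall started from a high early level.

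**Figure D2:**
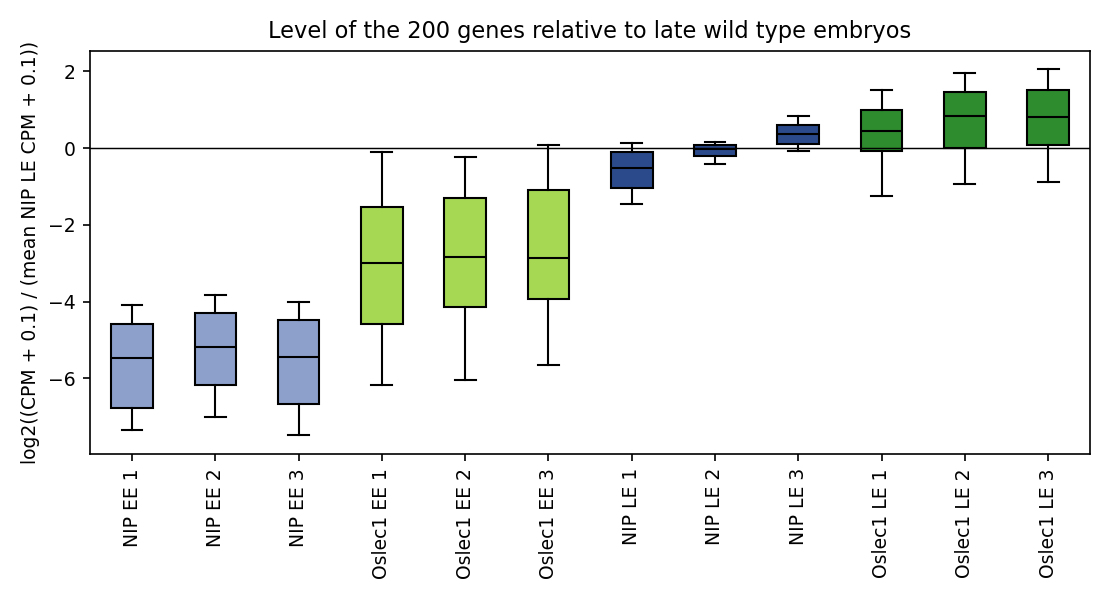
Level of the 200 genes in each of the 12 libraries relative to the mean of NIP LE, as log2((CPM + 0.1)/(mean NIP LE CPM + 0.1)). Boxes show the quartiles and the median over genes, whiskers the 10th and 90th percentile. The *Oslec1-1* EE boxes lie between those of NIP EE and NIP LE, and the *Oslec1-1* LE boxes have medians above 0, while the 3 NIP LE boxes differ among themselves.

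At EE, the genes were on the whole more abundant in *Oslec1-1* than in the wild type. The median gene had a mean of 8.49 CPM in *Oslec1-1* EE, against 1.08 CPM in NIP EE. As a share of the level in NIP LE, the *Oslec1-1* EE mean had a median of 13.6% and reached at least 25% in 71 genes and at least the whole level in 20 genes. The NIP EE mean had a median of 2.45%, which the choice of the genes keeps low. Without the 2 genes with the most counts, the sum over the rest lay between 608.8 and 704.1 CPM in NIP EE and between 5308 and 5904 CPM in *Oslec1-1* EE.

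In the test at EE, 91 of the 183 genes tested (49.7%) were called higher in *Oslec1-1*, where 10.9% of all 23034 genes tested were. In the opposite direction, 5 genes (2.73%) were called lower, against 3.92% of all genes tested, and 87 were not called. The median log2 fold change was 2.06, with quartiles of 0.82 and 3.58, against 0.03 over all genes tested. Every *Oslec1-1* EE library lay above every NIP EE library in 161 of the 200 genes and below in 7, which was so for 56.8% and 7.94% of all genes with a count.

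This direction is favoured by the choice, since genes with chance low values in NIP EE enter more easily. Genes were therefore also chosen on replicate 1 of NIP alone and tested in replicates 2 and 3 of NIP against *Oslec1-1*. Of the 185 such genes tested, 91 were called higher and 8 lower, where 11.6% and 3.99% of all genes tested were, with a median log2 fold change of 2.06. The filter on low counts matters as well, because only 108 of the 183 genes reached it in every NIP EE library and a gene that passed through *Oslec1-1* alone had to differ. Among the 103 genes that had 10 or more counts in each of the 6 libraries, 36 were called higher and 3 lower, where 3.83% and 3.16% of all genes kept by this filter were. The normalization also moves these values: by library size alone, the median of all genes at EE shifts from 0.03 to 0.70 on the log2 scale, and 116 genes are called higher. The CPM values quoted are by library size, whereas the log2 fold changes carry the TMM correction.

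Markers of another tissue moved with this result. A list of 16 identifiers was drawn up as endosperm genes, and 10 of them carry the GO term for nutrient reservoir activity. That term comes from lists that the study made of genes higher in *Oslec1-1* at EE, in these same libraries. The direction of these 10 at EE is therefore no independent result. The 16 summed to between 3507 and 4559 CPM in NIP EE and between 49003 and 53193 CPM in *Oslec1-1* EE. In any EE library 0 of the 16 were at 0, and 15 of them were called higher in *Oslec1-1*. At LE the sum was 147.4 to 192.1 CPM in NIP and 164.5 to 918.3 CPM in *Oslec1-1*, with 10 of the 16 called higher in *Oslec1-1* and 0 lower. Among 30 identifiers with the GO term for photosynthesis, the sum was 40.3 to 47.8 CPM in NIP EE and 1607 to 1723 CPM in *Oslec1-1* EE. At LE it was 83.7 to 93.6 CPM in NIP and 1564 to 1874 CPM in *Oslec1-1*. These 30 also come from the lists of genes higher in *Oslec1-1* at EE, so their direction at EE was fixed by the choice. None of the 200 genes is on either list, and their part in the results at EE and at LE was not tested.

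The genes called higher include some that the early wild type embryo hardly expressed. *Os02g0765600* (chromosome 2, 32248329 to 32250174), labelled as a hydrolase of O-glycosyl compounds and of polysaccharide breakdown, had 0, 0 and 0.0559 CPM in NIP EE, a single count in all, and 139, 215 and 165 CPM in *Oslec1-1* EE. *Os10g0491000* (chromosome 10, 18640397 to 18641882) had no count in NIP EE and 21.6, 23.2 and 33.7 CPM in *Oslec1-1* EE. *Os02g0765600* and *Os10g0491000* could be tested at EE through *Oslec1-1* alone, and the NIP EE libraries helped to choose them. Their calls at EE are thus no independent result, and neither a fold nor a *p* value is given. *Os06g0547400* (chromosome 6, 20705378 to 20706934), labelled as a peroxidase, one of the enzymes that oxidize their substrates with hydrogen peroxide, had 0.409, 0.993 and 0.391 CPM in NIP EE and 281, 211 and 356 CPM in *Oslec1-1* EE. In all 3, every *Oslec1-1* EE library also lay above every NIP LE library. *Os09g0300800* (chromosome 9, 7470846 to 7483164) followed the same course, with 0.563, 0.248 and 0.168 CPM in NIP EE, 87.4, 69.2 and 74.4 in *Oslec1-1* EE and 46.8, 28.6 and 42.8 in NIP LE. It then fell to 36.4, 34.2 and 37.3 CPM in *Oslec1-1* LE, a log2 fold change of -1.11 ± 0.09 that passed the adjusted *p* but not the fold.

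The 5 genes called lower at EE were *Os08g0104400*, *Os02g0759400*, *Os02g0686700*, *Os05g0380900* and *Os07g0529000*. *Os08g0104400* was lower by 4.32 ± 0.17 on the log2 scale (adjusted *p* = 3.99e-08). *Os02g0686700* (chromosome 2, 28132758 to 28133637) had 8.49, 9.06 and 11.4 CPM in NIP EE and 1.91, 2.62 and 1.48 in *Oslec1-1* EE (adjusted *p* = 7.27e-06). *Os07g0529000* (chromosome 7, 20691213 to 20693521) had 2.71, 5.21 and 5.25 CPM in NIP EE and 0.244, 0.167 and 1.16 in *Oslec1-1* EE. *Os08g0104400* was thus the most abundant of the 200 by CPM in the early wild type embryo, whereas the other 2 were at a low level there, and all 3 were scarcer in the mutant. *Os02g0759400* had 1.64, 4.28 and 1.45 CPM against 0.195, 0.781 and 0.635 CPM. *Os05g0380900* had 1.79, 0.621 and 17.2 CPM against 0.929, 1.51 and 1.43 CPM, where 1 NIP library stands high and the other libraries overlap. Without that library (replicate 3 of NIP EE) its log2 fold change was -0.58, and it was also not called without replicate 1 or 3 of *Oslec1-1* EE. All 5 were called higher at LE than at EE in *Oslec1-1*.

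**Figure D3:**
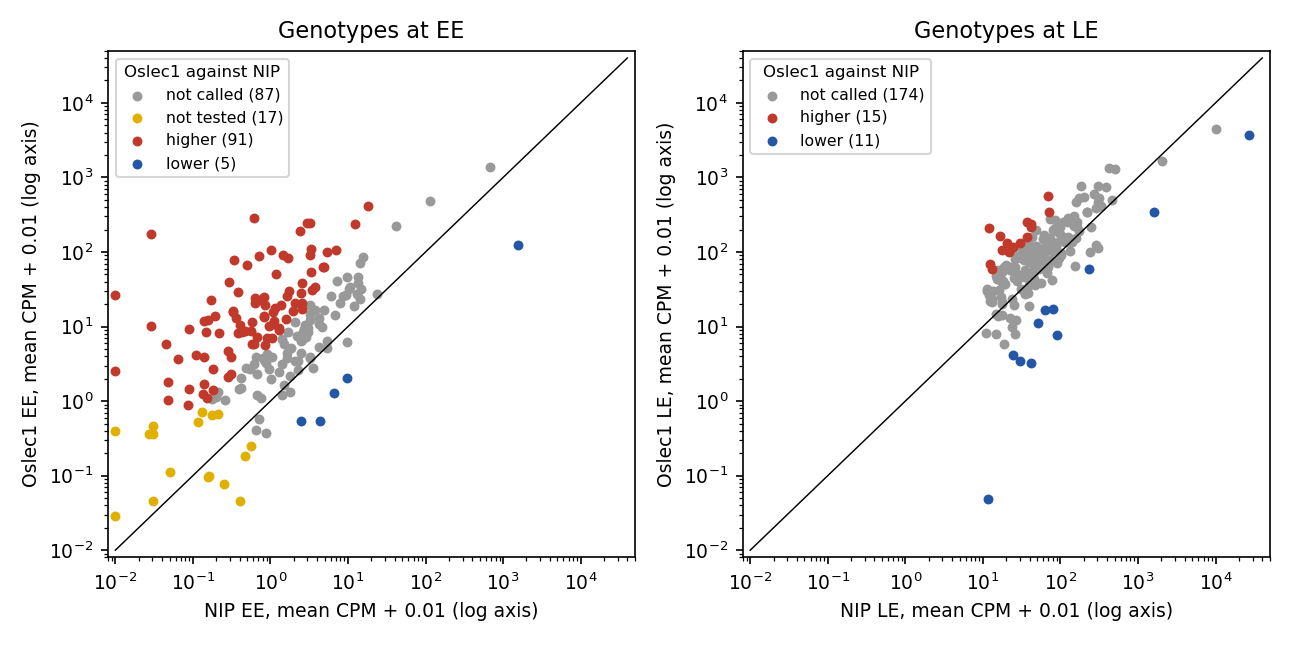
Mean CPM of 3 libraries in NIP (horizontal) and *Oslec1-1* (vertical), with 0.01 added, on log axes, for the 200 genes at EE (left) and at LE (right). Colours give the call of *Oslec1-1* against NIP in edgeR's test, and the line marks equal levels. At EE, 91 genes are called higher and 5 lower, while at LE 174 are not called.

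At LE, most of the 200 genes were not called different between *Oslec1-1* and the wild type, which was also so for most of all genes tested. Of the 200 genes, 15 (7.5%) were called higher in *Oslec1-1*, where 8.29% of all 24065 genes tested were, 11 (5.5%) were called lower, where 1.24% of all genes were, and 174 were not called. The median log2 fold change was 0.62, with quartiles of -0.05 and 1.23, against 0.02 over all genes tested. By level, the *Oslec1-1* LE mean lay between 50% and 200% of the NIP LE mean in 102 genes, above 200% in 77 and below 50% in 21, of which 9 were below 25%. The median was 166% of the NIP LE mean. Every *Oslec1-1* LE library lay above every NIP LE library in 92 genes and below in 24, which was so for 31.8% and 17.5% of all genes with a count. A gene that was not called is not shown to have the same level, and 82 genes were higher and 29 lower at an adjusted *p* under 0.05 without the demand on the fold. The share of all genes that passed without this demand is not given here, so these counts are not read as a trait of the 200.

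The NIP LE libraries that chose the genes also enter this test, and the choice of genes high in them favours lower calls in *Oslec1-1*. This holds also for the *p* values of the single genes called lower below. Among the genes chosen on replicate 1 of NIP and tested without it, 13 were called higher and 18 lower, where 8.73% and 1.29% of all genes tested were, and the median log2 fold change was 0.36. Replicate 1 of NIP LE is the library in which the 200 genes stood lowest, and without it 11 of the 200 were called higher and 11 lower, with a median of 0.43. Replicate 3 of NIP LE, in which the genes stood highest, decides the count of higher genes. Without it 28 were called higher and 10 lower, where 10.3% and 1.36% of all genes tested were.

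The 11 genes called lower at LE include *Os08g0104400*, the most abundant of the set. It reached 13.7% of its NIP LE level, a log2 fold change of -2.98 ± 0.14 (adjusted *p* = 1.04e-05). *Os01g0907600*, the gene with the highest ratio in the wild type, reached 21.8% of it, a log2 fold change of -2.30 ± 0.17 (adjusted *p* = 6.77e-05). The second most abundant, *Os07g0529800*, was not called. It had 707, 625 and 727 CPM in NIP EE, 1261, 1395 and 1429 in *Oslec1-1* EE, 11257, 9437 and 9448 in NIP LE and 4521, 4291 and 4547 in *Oslec1-1* LE, and its log2 fold change at LE was -1.28 ± 0.13 (adjusted *p* = 2.51e-04). Because of this pair, the share of all counts taken by the 200 genes was smaller in *Oslec1-1* LE than in NIP LE, while the sum over the other 198 genes lay between 15118 and 22895 CPM in NIP LE and between 25498 and 31893 CPM in *Oslec1-1* LE.

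*Os02g0770800* and *Os02g0685200* rose in *Oslec1-1* but to a small fraction of the wild type level. *Os02g0770800* (chromosome 2, 32513749 to 32517155) had 0, 0.807 and 0.559 CPM in NIP EE, 0.147, 0.112 and 0.265 in *Oslec1-1* EE, 13.1, 34.2 and 77.6 in NIP LE and 1.36, 4.26 and 4.14 in *Oslec1-1* LE (log2 fold change at LE -3.80 ± 0.70, adjusted *p* = 0.00395). *Os02g0685200* (chromosome 2, 28041117 to 28044149) had 0.614, 0.621 and 0.671 CPM in NIP EE, 0.342, 0.558 and 0.317 in *Oslec1-1* EE, 29.5, 27.7 and 32.9 in NIP LE and 4.56, 3.03 and 2.64 in *Oslec1-1* LE (log2 fold change at LE -3.23 ± 0.21, adjusted *p* = 3.90e-05). The groups did not overlap at LE in either gene, although the NIP LE libraries of *Os02g0770800* differ widely among themselves.

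The 1 gene with a name in the files, *MIR1428* (ENSRNA049472287, chromosome 2, 2535029 to 2535152), belongs to the microRNAs, which are short RNAs cut from longer precursors and which pair with target transcripts. It had no count in NIP EE, 0, 0.0558 and 0 CPM in *Oslec1-1* EE, 9.42, 12.04 and 13.5 CPM in NIP LE and 0.0735, 0.0439 and 0 CPM in *Oslec1-1* LE. At EE it was near 0 in both genotypes and stayed there in *Oslec1-1*, where a library held at most 2 counts at LE and the gene could be tested against NIP only through the NIP libraries that chose it. It was the only one of the 200 that was not tested between the *Oslec1-1* stages, for want of counts. Libraries of polyadenylated RNA hold precursors and not mature microRNAs, and how reads shared with similar loci were counted is not given in the sources used here.

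The other genes called lower at LE were *Os02g0232000*, *Os02g0584900*, *Os02g0178100*, *Os04g0674500*, *Os06g0718100* and *Os07g0639000*. *Os02g0584900* (chromosome 2, 22556916 to 22558121) had 241, 244 and 207 CPM in NIP LE and 62.1, 54.3 and 59.5 CPM in *Oslec1-1* LE. Its log2 fold change of -2.08 ± 0.11 is at the limit and was -1.98 by library size alone, which is not called. *Os02g0178100* (-1.90 by library size alone) and *Os02g0232000* (-1.71 without replicate 3 of NIP LE) are close to the limit as well. *Os04g0674500*, *Os06g0718100* and *Os07g0639000*, together with *Os01g0907600*, were called higher in *Oslec1-1* at EE and lower at LE, a pattern that 0.0359% of the 22309 genes tested at both stages showed and that the choice of the genes favours. *Os04g0674500* could be tested at EE through *Oslec1-1* alone, so its call there is no independent result, and *Os01g0907600* had only 1 to 17 counts per NIP EE library. With limma on log2(FPKM + 1), *Os04g0674500* lost both calls (1.94 at EE and -1.94 at LE) and *Os01g0907600* lost the call at EE (1.71). *Os07g0639000* (chromosome 7, 26603637 to 26604964), labelled as a peroxidase, had 7.42, 4.59 and 2.52 CPM in NIP EE, 78.97, 54.1 and 53.7 in *Oslec1-1* EE, 87.6, 81.7 and 71.01 in NIP LE and 18.04, 15.3 and 18.7 in *Oslec1-1* LE. *Os06g0718100*, for which the *Oslec1-1* levels stand above, had 6.34, 8.502 and 5.93 CPM in NIP EE and 98.9, 103 and 72.7 CPM in NIP LE. Both genes thus ran in opposite directions in the 2 genotypes.

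All 15 genes called higher at LE had also been called higher at EE. At EE, 49.7% of the genes tested were called higher, a direction that the choice favours. The share of all genes called higher at both stages was not counted. Of the 15, 6 kept their call at LE when any 1 replicate was left out and 9 lost it in at least 1 case, while of the 11 called lower 9 kept it. *Os02g0765600*, the glycosyl hydrolase, had 16.5, 10.6 and 8.88 CPM in NIP LE and 159.6, 223 and 237 CPM in *Oslec1-1* LE (log2 fold change 4.003 ± 0.273, adjusted *p* = 5.05e-05). *Os05g0247800* (chromosome 5, 8959416 to 8960566) is labelled with chitinase activity, the cleavage of the chitin found in fungal walls, and also with enzyme inhibitor activity. Whether its product cleaves chitin was not tested. It had no count in NIP EE, 1.08, 3.52 and 2.91 CPM in *Oslec1-1* EE, 14.8, 12.9 and 22.6 in NIP LE and 233, 119 and 133 in *Oslec1-1* LE (log2 fold change at LE 3.17 ± 0.33, adjusted *p* = 3.00e-04). *Os05g0202800* (chromosome 5, 6393899 to 6396069) had 5.17, 1.74 and 2.07 CPM in NIP EE, 209, 213 and 309 in *Oslec1-1* EE, 72.3, 60.6 and 74.7 in NIP LE and 451, 619 and 645 in *Oslec1-1* LE (log2 fold change at LE 2.94 ± 0.16, adjusted *p* = 2.03e-05). In these genes, the LE libraries of the 2 genotypes were far apart. *Os02g0639300* (chromosome 2, 25646627 to 25648251) had 16.4, 40.99 and 55.1 CPM in NIP LE and 191, 280.0 and 298 in *Oslec1-1* LE, after 5.28, 2.57 and 4.76 in *Oslec1-1* EE. *Os06g0547400*, the peroxidase, had 26.4, 29.9 and 67.3 CPM in NIP LE and 177, 279 and 259 in *Oslec1-1* LE, and between the *Oslec1-1* stages it was not called (adjusted *p* = 0.316).

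**Figure D4:**
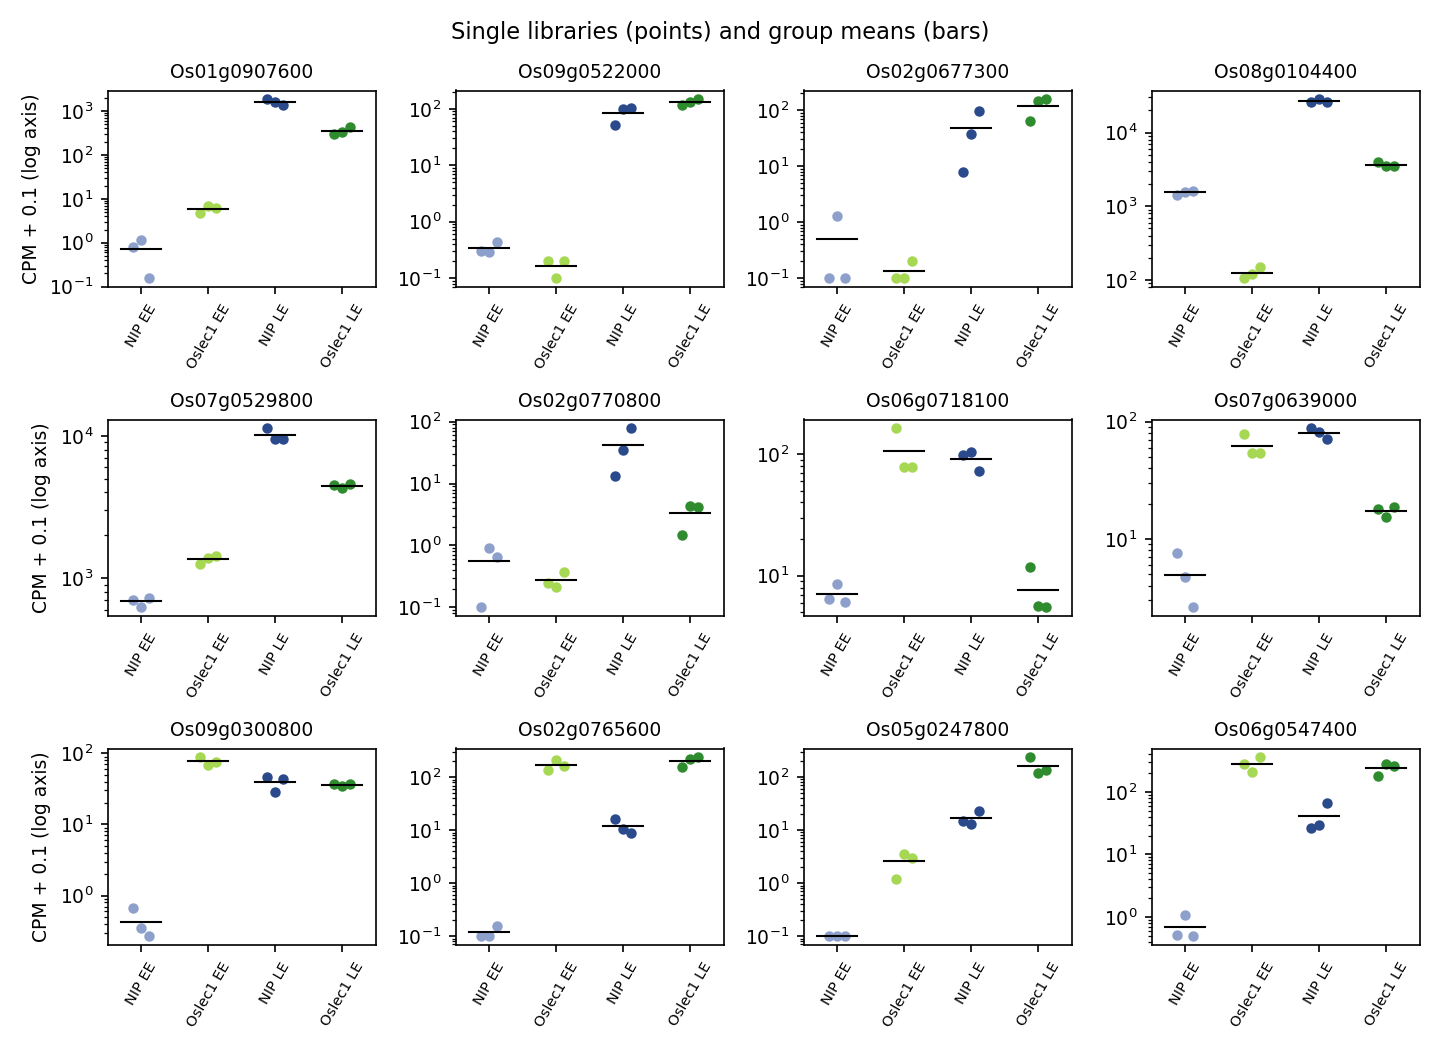
CPM + 0.1 of 12 of the genes on log axes, with a point per library and a bar at each group mean. In the upper row and the first 2 genes of the middle row, the LE mean lies above the EE mean in both genotypes. *Os06g0718100*, *Os07g0639000* and *Os09g0300800* are higher at EE than at LE in *Oslec1-1*, and the last 3 genes exceed the wild type in *Oslec1-1* at both stages.

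The calls sort the 200 genes into a few courses. The choice of genes low in NIP EE and high in NIP LE shapes the calls between the genotypes. The share of all genes in each course was not counted. The most frequent, with 75 genes, was not called at EE, rose in *Oslec1-1* and was not called at LE, and a further 15 genes that were too scarce to test at EE did the same. Another 35 genes were called higher in *Oslec1-1* at EE, still rose there and were not called at LE. A further group of 35 genes was called higher at EE, was not called between the *Oslec1-1* stages and was not called at LE. The remaining 40 genes had a call at LE, a fall in *Oslec1-1*, a lower level at EE or no call in any of the 3 tests, of which 8 genes were the last.

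The 28 labelled genes come from lists that the study made of genes higher in *Oslec1-1* at EE, in these same libraries. That all 28 were called higher at EE here is therefore no independent result, and the labels are silent on the other 172 genes. Between the *Oslec1-1* stages, 8 of the 28 were called higher, 2 lower and 18 were not called. The *Oslec1-1* EE libraries also enter this comparison, and genes listed as high in them are favoured to rise little or to fall. The stage calls of the labelled genes are thus no independent result either.

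Among the 4 peroxidases, *Os09g0471100* was called higher at LE than at EE in *Oslec1-1*, and between the genotypes at LE *Os06g0547400* was called higher and *Os07g0639000* lower. Both genes labelled with chitinase activity, *Os05g0247800* (also labelled with enzyme inhibitor activity) and *Os06g0726200*, were called higher in *Oslec1-1* at LE. *Os06g0726200* (chromosome 6, 30890834 to 30892050) had 34.5, 26.1 and 31.00 CPM in NIP LE and 103, 116 and 181 in *Oslec1-1* LE, a log2 fold change of 2.02 ± 0.22 that was not called without replicate 3 of *Oslec1-1* LE (1.75) or replicate 2 of NIP LE (1.92). Of the 4 genes with another glycosyl hydrolase label, *Os02g0765600* was called higher at LE. *Os07g0209100* had 108, 102 and 111 CPM in *Oslec1-1* EE and 821, 719 and 766 in *Oslec1-1* LE, and its log2 fold change of 1.96 ± 0.16 against NIP at LE was just short of the limit and was 2.06 by library size alone. *Os10g0492900* had 148, 109.6 and 123 CPM in NIP LE and 138, 123 and 141 in *Oslec1-1* LE, with overlapping libraries. Of the 5 cell wall genes, 1 was called higher and 2 were called lower between the *Oslec1-1* stages, with the limit stated above for labelled genes.

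The 5 transporters, proteins that move solutes across membranes, had no call at LE. *Os02g0788800* (chromosome 2, 33511971 to 33517881), labelled for amino acid transport, had 20.3, 19.7 and 13.5 CPM in NIP EE, 501, 349 and 399.9 in *Oslec1-1* EE, 211, 259 and 275 in NIP LE and 203, 232 and 209.5 in *Oslec1-1* LE. The 1 labelled transcription factor, *Os09g0528200* (chromosome 9, 20671994 to 20673280), had 1.64, 0.869 and 1.84 CPM in NIP EE, 94.5, 90.3 and 85.3 in *Oslec1-1* EE, 74.01, 108 and 145 in NIP LE and 211, 269 and 283 in *Oslec1-1* LE. Its log2 fold change at LE was 1.12 ± 0.23 (adjusted *p* = 0.00646), past the test but not past the fold. Both genes had reached the range of late wild type embryos, or more, in *Oslec1-1* at EE. Of the 4 genes labelled for defense or stress response, *Os11g0592200* was called higher at LE, with 13.7, 9.65 and 13.2 CPM in NIP LE and 43.8, 44.9 and 118 in *Oslec1-1* LE, a call that was lost without replicate 3 of *Oslec1-1* LE (log2 fold change 1.77).

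**Figure D5:**
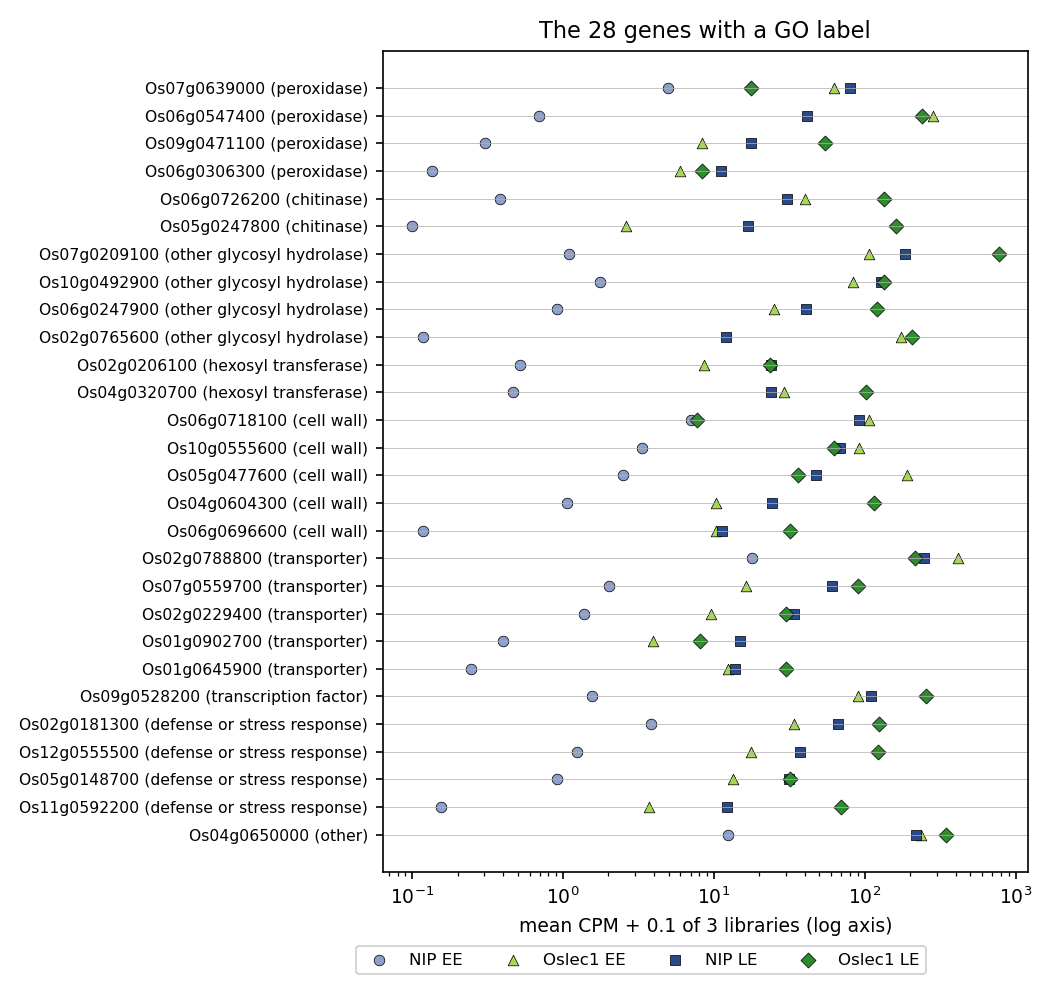
Mean CPM + 0.1 of 3 libraries per group on a log axis for the 28 genes with a GO label, ordered by label. Circles are NIP EE, triangles *Oslec1-1* EE, squares NIP LE and diamonds *Oslec1-1* LE. The circle is far to the left in nearly every row, and the triangle lies near the square or beyond it in many.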

How the data were processed

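RNA of *Oslec1-1* and wild type embryos at 7 and 25 DAP was sequenced in 12 libraries, 3 per genotype and stage, assigned to groups from the sample titles. According to the submitters' notes, reads were trimmed with Trimmomatic 0.36, mapped to IRGSP-1.0 with HISAT2 2.1.0 and quantified with StringTie 1.3.4d. The authors deposited a table of counts per gene without normalization, and the program that counted the reads is not given in the sources used here. For each library the authors deposited a StringTie table with FPKM, TPM and coverage. FPKM served for levels between genes and for alternatives, while the deposited TPM and coverage were not used here. For a gene with no count in a library, the limit is 3 counts, or 0.11 to 0.186 CPM, for counting error only.

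The 200 genes were chosen on CPM as stated above. The genes and lists were chosen with earlier results of these data known. Each contrast was fitted on all genes of its 6 libraries in R 4.3.3 with edgeR 4.0.16 (filterByExpr with a minimum count of 10, TMM, quasi-likelihood test, Benjamini-Hochberg adjustment over all genes tested). Standard errors were derived from the *F* statistics. The script was tested on simulated data. For genes chosen on NIP replicate 1 alone, the test used NIP replicates 2 and 3, and 156 of these 200 genes are shared with the main choice. The genes named were the 10 with the highest ratio, the 10 with the highest FPKM in NIP LE, the 5 highest and 5 lowest of each contrast (with at least 20 CPM in the higher group between genotypes) and the 3 on each side of the limit. From these, those that show a course are printed, and the genes with a call or a GO label were added after their values were seen. No test of the wild type stages or of the difference between the genotypes over the stages was made, since it would use the contrast that chose the genes. GO terms came from a shortened copy of the supplementary lists of the study, of which only the identifiers and terms were used.

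Alternatives were DESeq2 1.42.0, RLE factors, library size only, limma 3.58.1 on FPKM (log2 scale, 1 or 0.1 added), a block for the replicate number, no filter or a minimum of 10 counts in each library, other rules for the genes, and each replicate left out. Lists of gene families by description and promoter motifs could not be used without descriptions and sequences. Python 3.11.15 served for tables and figures, with pandas 2.3.3 and matplotlib 3.10.9.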

Additional observations from a re-analysis of the deposited data

Results flagged for a closer look

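In 7 of the 200 genes, every *Oslec1-1* LE library lay below every *Oslec1-1* EE library, although the genes were chosen for rising in NIP, where every one of them did. They were *Os09g0300800*, *Os10g0555600*, *Os05g0477600*, *Os07g0639000*, *Os02g0788800*, *Os01g0219300* and *Os06g0718100*. Whether the change between the stages differed between the genotypes was not tested, because the NIP contrast chose the genes.

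Higher in *Oslec1-1* at EE and lower at LE were 4 of the 200 genes (*Os01g0907600*, *Os04g0674500*, *Os06g0718100* and *Os07g0639000*), against 0.0359% of the 22309 genes tested at both stages. The choice of genes that are low in NIP EE and high in NIP LE favours this pattern. *Os04g0674500* had at most 6 counts in a NIP EE library and could be tested at EE through *Oslec1-1* alone. Its call at EE is therefore no independent result. *Os01g0907600* had 1 to 17 counts per NIP EE library. With limma on log2(FPKM + 1), *Os04g0674500* lost both calls (log2 fold change 1.94 at EE and -1.94 at LE) and *Os01g0907600* lost the call at EE (1.71). *Os04g0674500* had 0.307, 0 and 0.112 CPM in NIP EE, 11.8, 4.35 and 9.52 in *Oslec1-1* EE, 32.1, 27.1 and 14.5 in NIP LE and 4.45, 4.13 and 4.003 in *Oslec1-1* LE. Whether the difference between the genotypes changed between the stages was not tested.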

How the results depend on the processing

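A smaller or larger set changes the counts by its size. With 100 genes, 81 were called higher and 0 lower between the *Oslec1-1* stages (median log2 fold change 4.14), 8 higher and 5 lower at LE, and 44 higher and 1 lower at EE (median 1.88). With 400 genes, the counts were 268 higher between the stages (median 2.83), 27 higher and 25 lower at LE, and 156 higher and 16 lower at EE (median 1.68). With 0.1 added to the CPM, which favours scarce genes, 1 was lower between the stages (median 4.03), 25 were higher at LE and 1 was lower at EE (median 3.60). With 10 added, the stage median was 2.86, 5 were higher at LE, and 50 were higher and 13 lower at EE (median 0.95). On TMM-scaled CPM, 3 were lower at EE (median 2.25). The genes chosen on NIP replicate 1 gave 18 lower at LE (median 0.36) and 8 lower at EE.

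Of the tests, limma on log2(FPKM + 1) gave a stage median of 3.08, 7 lower at LE, and 1 lower at EE (median 1.61), and with 0.1 added 3 lower at EE (median 2.49). At least 10 counts in every library left 36 higher and 3 lower at EE (median 1.34). The EE median was 1.94 with DESeq2, 2.74 by library size only and 1.89 without a filter. With each replicate left out, the counts between the stages lay from 139 to 148 higher and 2 to 3 lower (median 3.35 to 3.62), at LE from 10 to 28 higher and 10 to 11 lower (median 0.43 to 0.83), and at EE from 86 to 101 higher and 4 to 7 lower (median 1.77 to 2.51). No gene with a call reversed its direction in these alternatives. Among 2930 values of single genes, 66 lost a call and 31 gained one.

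Samples of the same number did not deviate together in every pair (correlations from -0.05 to 0.50 at LE, from -0.08 to 0.14 at EE and from 0.03 to 0.12 between the stages). Samples of unlike number gave -0.54 to 0.42 at LE. With 3 samples per group, these values cannot decide whether the numbers pair the samples. With the replicate number as a block, 145 genes were called higher and 3 lower between the stages, 17 and 11 at LE, and 93 and 5 at EE.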
